A study of Mus musculus with 3 samples.

Results

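The cytosolic ribosomal protein genes were taken as the protein-coding mouse genes whose symbols are Rpl or Rps followed by a digit, together with Rplp0, Rplp1, Rplp2 and Rpsa. Pseudogene symbols carrying -ps and the unrelated Rps6k and Rps19bp genes were left out. This gave 85 of the 50043 gene IDs in the deposited table, 52 of the large (60S) subunit and 33 of the small (40S) subunit. Of these, 77 encode the canonical subunits and 8 encode paralogs, the genes Rpl3l, Rpl7l1, Rpl10l, Rpl22l1, Rpl36al, Rpl39l, Rps27l and Rps27rt.

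RNA came from KH2 mouse embryonic stem cells in which Pold3, encoding an accessory subunit of DNA polymerase delta, can be knocked out by induction. All 3 libraries carry this inducible allele and were sequenced from passages P0, P1 and P2, with 1 library per passage. The labels do not give the time of induction, the inducing agent, the number of clones or whether cultures were pooled, and they do not state that P0 was uninduced. Since nothing was replicated, differences are described without p-values.

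Levels are FPKM, fragments scaled to gene length in kilobases and to the library's size, as the authors deposited them. Differences between libraries were taken on the scale of log2(FPKM + 1). A gene is said to have risen or fallen only where this difference reached 0.32 on the log2 scale, called the lower threshold below, and smaller differences are given as values. A difference of 1 on that scale is called 2-fold. Ratios of FPKM carry exact conditional 95% intervals computed on recovered reads, which compare the libraries and not the passages as conditions, and cover counting error only. Each later library was compared with P0, and P2 also with P1, so the comparisons share libraries and are not independent of each other.

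Ribosomal proteins coat and stabilise the ribosomal RNAs, assist the folding and export of each subunit, and form the stalk that recruits elongation factors. Their messenger RNAs are among the most abundant in dividing cells. Most belong to the TOP class, which begin with a cytosine followed by a run of pyrimidines at the 5′ end. The mTOR pathway controls the translation and stability of TOP messenger RNAs through Larp1. Several free ribosomal proteins, chiefly Rpl5 and Rpl11 in their complex with 5S RNA, bind Mdm2 and so hold back the degradation of p53.

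Library totals recovered from the values were 23213528 (P0), 18059914 (P1) and 22405670 reads (P2). At this depth, 3 reads on 1 kb of gene are worth 0.129, 0.166 and 0.134 FPKM. Pold3 measured 49.2, 13.0 and 11.6 FPKM in P0, P1 and P2 and was thus lower in both later libraries. All 8 embryonic stem cell markers were present in every library, with summed levels of 3946 to 4239 FPKM. Their median log2 difference was -0.16 for P1 against P0 and -0.18 for P2 against P0, with 2 of 8 falling in each and 0 and 1 rising. Of 11 fibroblast markers, which would mark feeder cells, Postn and S100a4 were listed at 0 in every library and the summed level was 65.0 to 92.2 FPKM, most of it Vim. Of the 5 compared, 4 rose and Vim fell against P0 in each later library. Vim measured 83.7, 44.3 and 58.3 FPKM, Col1a1 1.98, 5.63 and 7.09 FPKM and Fbln2 0.764, 2.67 and 2.06 FPKM in P0, P1 and P2. Fbln2 was under 1 FPKM at P0, so it was compared only through the later libraries, where it was higher. Markers under 1 FPKM in both libraries were not compared. The part of other cells in the results below was not tested. In bulk RNA, fewer cells of a type and less RNA per cell cannot be told apart.

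The ribosomal protein genes held 15.7% of all FPKM at P0, 15.1% at P1 and 14.4% at P2. By recovered reads their share was 8.20% at P0 (exact binomial 95% interval 8.19 to 8.21), 7.81% at P1 (7.80 to 7.83) and 7.53% at P2 (7.52 to 7.54). The share was thus highest in P0 and lowest in P2. The 3 intervals did not overlap, but they cover counting error only and are narrow at this many reads. With 1 library per passage they do not measure the spread between cultures. Among the 50 most abundant gene IDs of each library, 27 at P0, 30 at P1 and 29 at P2 were ribosomal protein genes. The median level of the 77 canonical genes was 1401 FPKM at P0, 1332 at P1 and 1264 at P2, against a median of 13.9, 13.1 and 13.0 FPKM over all IDs with FPKM of at least 1. The summed level of 60S genes was 1.31, 1.29 and 1.31 times that of 40S genes in P0, P1 and P2. The 60S genes went from 8.92 to 8.20% of FPKM between P0 and P2 and the 40S genes from 6.80 to 6.25%, so both subunits had the lower share at P2.

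**Figure D1:**
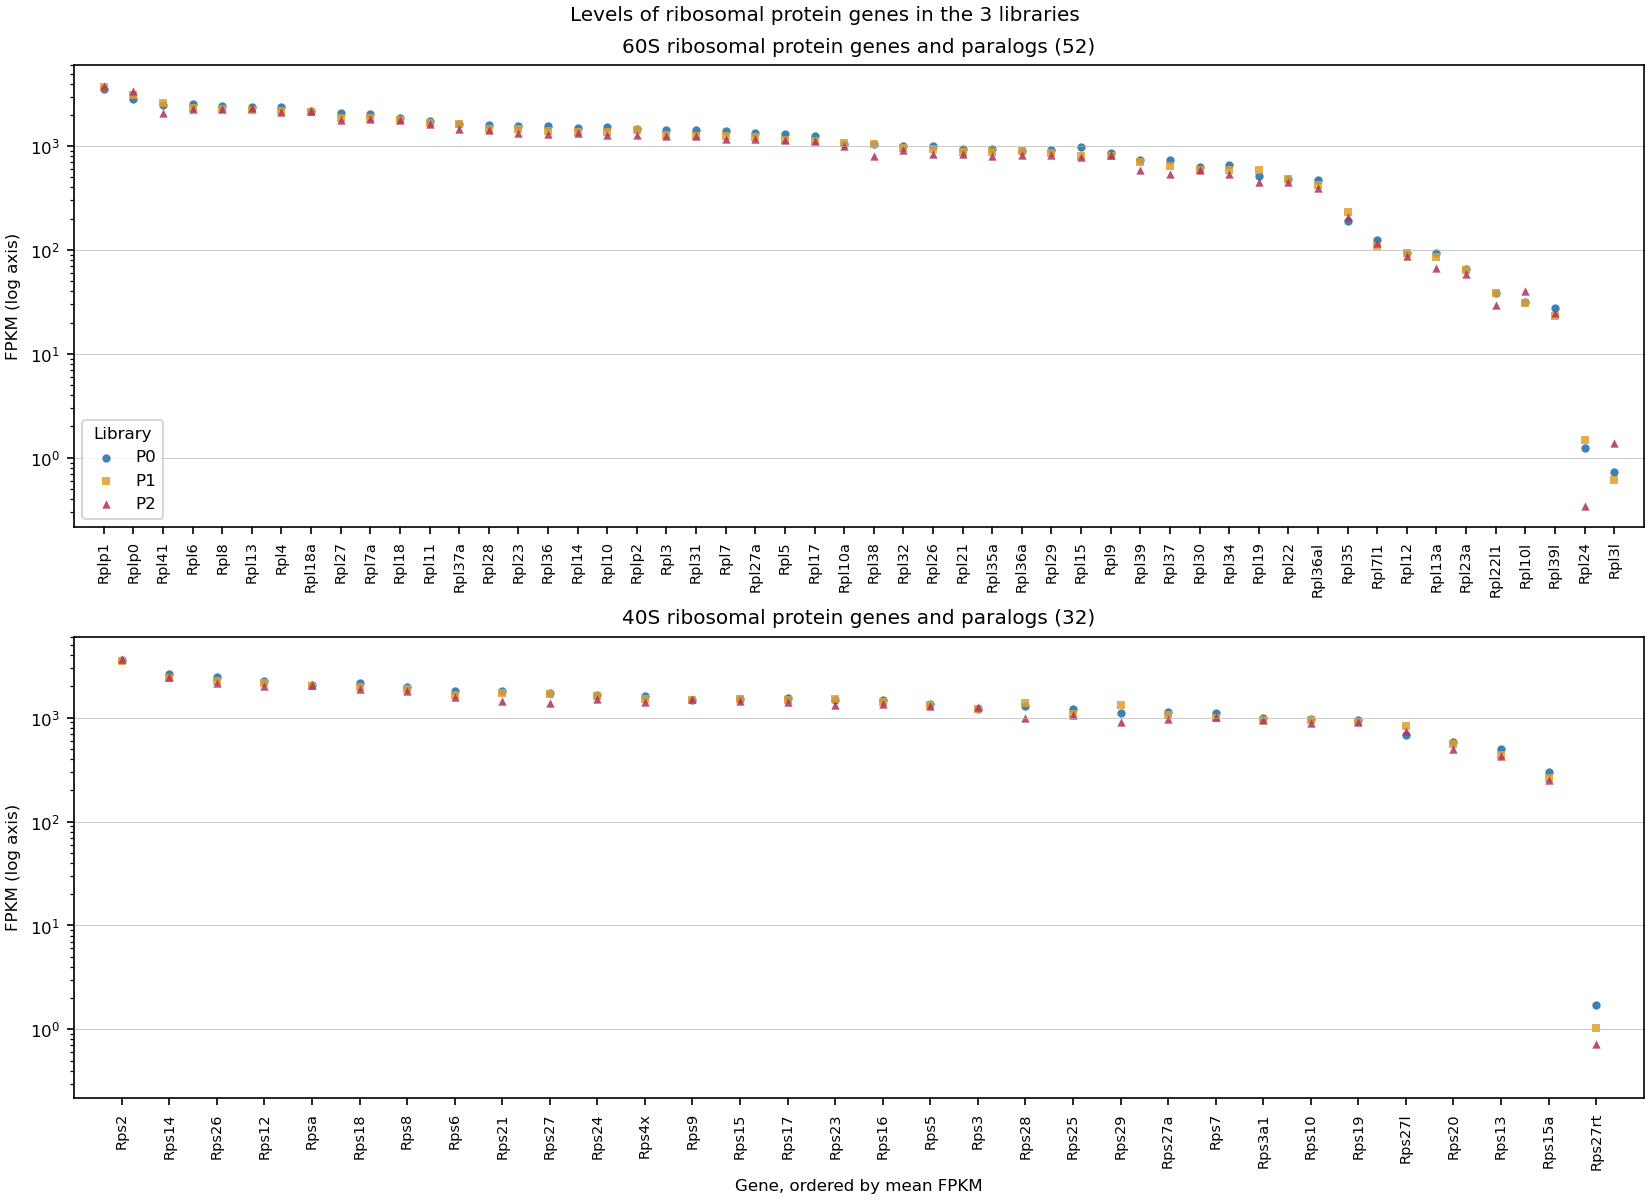
FPKM (log axis) of the 52 large-subunit genes (top) and 32 of the 33 small-subunit genes (bottom), paralogs included, in the libraries P0 (circles), P1 (squares) and P2 (triangles), ordered by mean FPKM. The canonical genes cluster around their median of 1401 FPKM at P0 with the 3 libraries close together, while Rpl24, Rpl3l and Rps27rt lie near 1 FPKM.

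The differences were small in size and mostly of one sign. At P1, 66 of 84 ribosomal protein genes compared were lower than at P0 by any amount (78.6%), where 42.4% of all 13288 genes compared were lower. At P2, 75 of 85 were lower than at P0 (88.2%), against 42.3% of 13472 genes. P2 lay below P1 in 67 of 85 (78.8%), against 46.2% of 13585 genes. Among genes of at least 100 FPKM, which are closer to the ribosomal protein genes in level, 68 of 76 (89.5%) were lower at P2 than at P0, against 52.1%. The corresponding counts were 61 of 76 (80.3%) for P1 against P0, where 53.9% of such genes were lower, and 61 of 76 for P2 against P1, where 49.5% were.

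The median log2 difference of the 85 genes was -0.08 for P1 against P0, -0.16 for P2 against P0 and -0.07 for P2 against P1. The medians over all genes compared were 0.06, 0.07 and 0.02. The medians of the ribosomal protein genes stayed below 0 under each alternative scaling, but their size and their distance from all genes depended on it. Median-of-ratios scaling moved the median of all genes by -0.11 for P1 against P0 and by -0.12 for P2 against P0, and quantile normalization moved the latter by -0.12. The median of all genes was then below 0, at -0.050 and -0.052 under median-of-ratios scaling and -0.038 and -0.053 under quantile normalization. The shares of all genes that were lower, given above, therefore hold for the deposited values. Relative to all genes, the ribosomal protein genes stood at -0.14, -0.24 and -0.09 under median-of-ratios scaling, close to the -0.13, -0.23 and -0.09 of the deposited values. Under quantile normalization they stood at 0.01, 0.01 and -0.01, so their difference from other genes was not seen on that scale. There 49 of 85 were lower and 32 higher at P2 than at P0, while the median of all genes was itself -0.053. The share of all genes that were lower on that scale is not given here, so the 49 have no background beside them. That scaling gives every library the same sorted values, and these genes were 27 to 30 of the 50 most abundant IDs. Whether the scaling itself removed a small shift shared by the most abundant genes was not tested. The difference from other genes thus depended on the scaling chosen.

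Few genes passed the lower threshold. At P1 the only gene below P0 by this much was Rps27rt, a retrocopy with 15 reads at P0 and 7 at P1, and none was above it. Over all genes, 9.2% fell and 23.3% rose in that comparison. At P2, 9 of 85 (10.6%) fell against P0, where 12.7% of all genes did, and 2 of 85 (2.35%) rose, where 27.9% did. The 9 were Rpl13a, Rpl22l1, Rpl24, Rpl37, Rpl38, Rpl39, Rps27, Rps27rt and Rps28, and the 2 were Rpl3l and Rpl10l. P2 against P1 gave 7 falls (8.24%, background 8.3%), in Rpl13a, Rpl19, Rpl22l1, Rpl24, Rpl38, Rps28 and Rps29, and 2 rises (2.35%, background 11.1%), again in Rpl3l and Rpl10l. Rpl3l reached 1 FPKM only at P2, so it was compared only through the library where it was high. Rpl24 and Rps27rt were under 1 FPKM at P2 and were compared through the earlier library, where they were higher. No ribosomal protein gene passed 2-fold in any comparison. Over all genes, 0.549% fell and 4.12% rose 2-fold for P1 against P0, 1.16 and 6.72% for P2 against P0, and 0.883 and 0.78% for P2 against P1. The shares that fell were near the background of all genes at P2, in both comparisons, and below it for P1 against P0 (1 of 84, 1.19%). Among genes of at least 100 FPKM, 0 of 76 fell and 0 rose for P1 against P0, where 6.79 and 9.52% of such genes did. For P2 against P0, 5 of 76 (6.58%) fell and 0 rose, where 11.9 and 14.0% did. For P2 against P1, 4 of 76 (5.26%) fell and 0 rose, where 2.63 and 3.69% did. Just short of the threshold at P2 were Rpl15 and Rps29, both at -0.32 on the log2 scale.

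**Figure D2:**
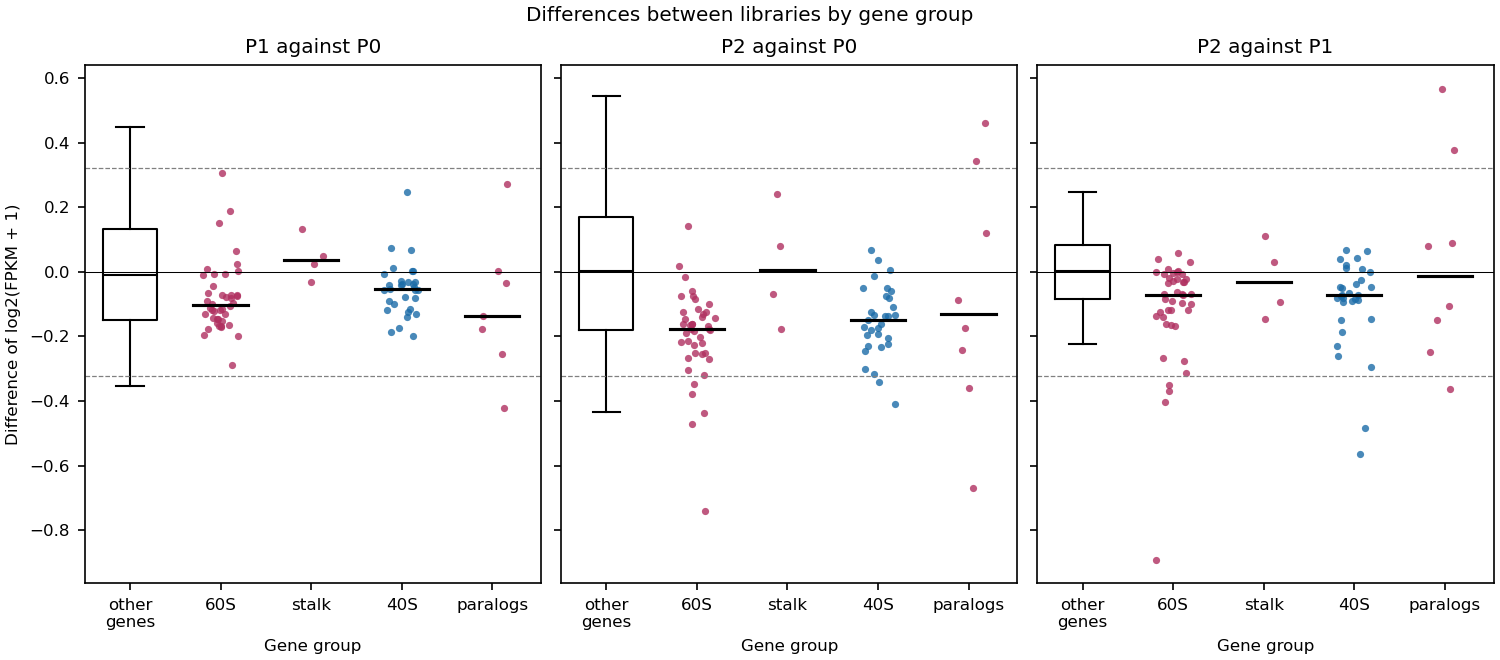
Difference of log2(FPKM + 1) between libraries for 60S, stalk, 40S and paralog genes, 1 point per gene with the group median as a bar, beside a box over other protein-coding genes with mean FPKM of at least 100 (median, quartiles, whiskers at percentiles 5 and 95). Dashed lines mark the lower threshold of 0.32. Most 60S and 40S points lie below 0 in each panel on the deposited scale. Under quantile normalization, which gives every library the same sorted values, the median of the ribosomal protein genes equalled that of all genes within 0.02.

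The start of the messenger RNA is where the TOP class is defined, so the annotated starts were read. RefSeq promoter sequences of the build GRCm38.p6 were matched by symbol for 65 of the 85 genes. A cytosine at the annotated start followed by 4 or more of C or T was present in 14 of 65 (21.5%), against 3.01% of 27025 genes in the same table. Annotated starts can lie some bases away from the start used in a cell, so absence of a run says only that these letters do not begin at the listed base. The sequences below, 20 bases before and 20 from the start, are those of 8 of the 14 genes, chosen among those described with values in the text. They are given 5′ to 3′ on the gene's strand, with the pyrimidine run in capitals.
Rpl15, chr14:18270967-18271006, minus strand: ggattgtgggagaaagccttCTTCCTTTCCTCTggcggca
Rpl35, chr2:39005112-39005151, minus strand: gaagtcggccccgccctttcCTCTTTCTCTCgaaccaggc
Rpl38, chr11:114668560-114668599, plus strand: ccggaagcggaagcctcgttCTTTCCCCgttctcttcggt
Rplp2, chr7:141447631-141447670, plus strand: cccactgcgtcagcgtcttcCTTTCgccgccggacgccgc
Rps6, chr4:86857348-86857387, minus strand: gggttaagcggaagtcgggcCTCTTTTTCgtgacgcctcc
Rps15a, chr7:118116128-118116167, minus strand: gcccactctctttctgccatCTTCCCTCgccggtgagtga
Rps27, chr3:90213629-90213668, minus strand: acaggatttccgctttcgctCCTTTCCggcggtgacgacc
Rps27rt, chr9:114982720-114982759, minus strand: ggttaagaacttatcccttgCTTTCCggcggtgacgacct
Among these 8 the run was longest in Rpl15, with 13 pyrimidines, and shortest in Rplp2, with 5. After the run, the retrocopy Rps27rt continues with the same letters as Rps27, whereas the bases before the start differ.

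The 14 genes with the run had median differences of -0.11 for P1 against P0, -0.21 for P2 against P0 and -0.10 for P2 against P1. The 51 matched genes without it had medians of -0.07, -0.16 and -0.07. All 14 were lower at P2 than at P1, and 37 of 51 of the others were. Since the listed starts are inexact, the groups are a description of the annotation. The motif CCGGAAG, a core recognised by ETS family factors, was searched on both strands from 250 bases before the start to 50 after it. It occurred in 26 of 65 genes and in 2683 of the 27025 in the table (9.93%). The median differences were -0.08, -0.19 and -0.08 with it and -0.07, -0.14 and -0.07 without it. The TATA box letters TATAAA were found in 7 of 65 (10.8%) and in 15.7% of all genes.

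In the body of the large subunit, 38 of 40 genes were lower at P2 than at P0, with a median of -0.18, and 5 of them fell. Rpl37, a zinc-binding protein of the large subunit on chromosome 15, measured 731 FPKM at P0, 651 at P1 and 540 at P2. Its level was lower in each later library, with a ratio of P2 to P0 of 0.739 (0.720 to 0.758). Rpl38, which is needed for the translation of a set of Hox messenger RNAs, measured 1054, 1049 and 812 FPKM. P0 and P1 were alike within their interval (ratio 0.995, 0.965 to 1.03) and P2 stood lower (0.770 of P0, 0.746 to 0.794). Rpl39, which lines the tunnel through which the new protein leaves, measured 743, 708 and 584 FPKM, a ratio of 0.786 (0.762 to 0.811) at P2. Rpl13a, known also for silencing translation in the interferon response, was far lower in level, at 94.0, 86.2 and 67.4 FPKM, and its ratio at P2 was 0.718 (0.657 to 0.784).

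Other 60S genes differed mainly at the earlier step. Rpl15 measured 972 FPKM at P0, 795 at P1 and 779 at P2. It stood apart at P0, with a ratio of P1 to P0 of 0.818 (0.801 to 0.836) and of P2 to P1 of 0.980 (0.958 to 1.0018). Rpl31, which sits near the tunnel exit, measured 1442, 1256 and 1264 FPKM, also with P0 above the later libraries. Rpl10, which joins the large subunit last and is needed for its activation, measured 1534, 1364 and 1272 FPKM, and Rpl3, which reaches close to the peptidyl transferase centre, 1423, 1289 and 1259 FPKM.

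A few did not follow this order. Rpl35 measured 190 FPKM at P0, 234 at P1 and 209 at P2 and was highest at P1, with a ratio to P0 of 1.24 (1.17 to 1.31). Rpl19, which reaches across to the small subunit in a bridge, measured 519, 591 and 447 FPKM, and its P2 level was 0.756 of P1 (0.731 to 0.783). Rpl13 measured 2361, 2239 and 2333 FPKM, with P0 and P2 alike within counting error (0.988, 0.976 to 1.0003).

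**Figure D3:**
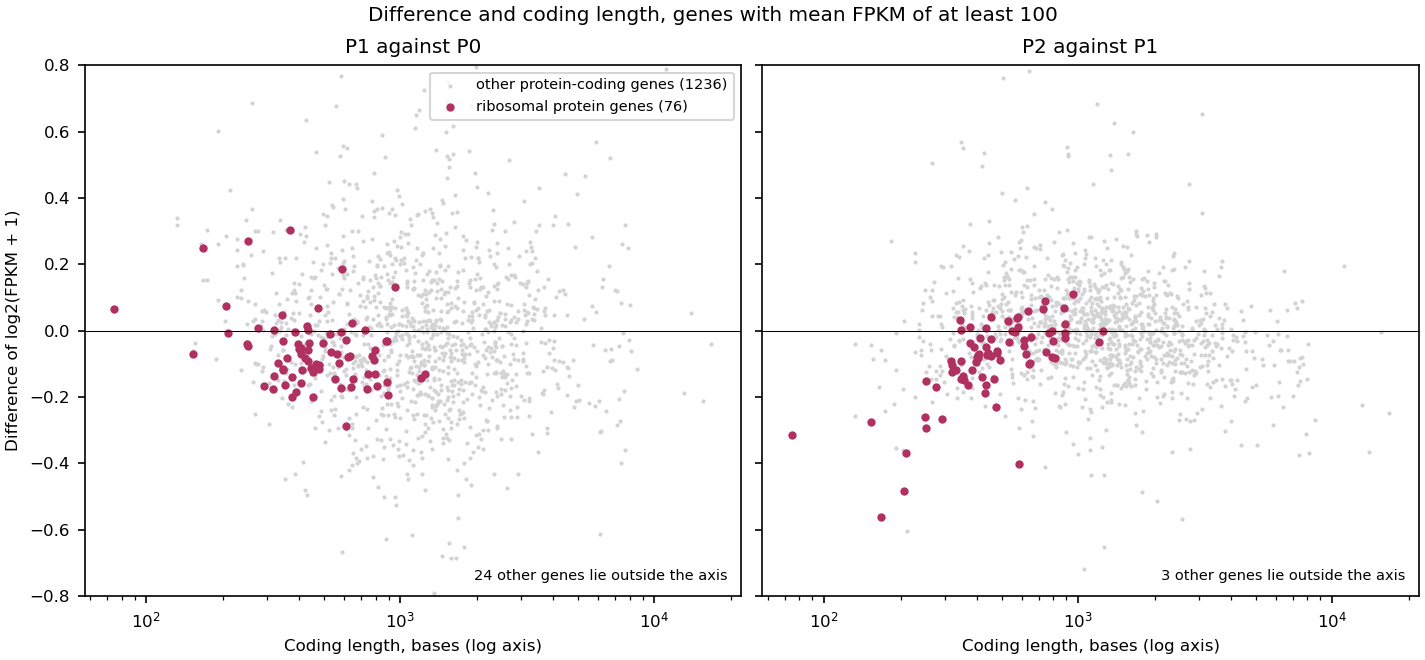
Difference of log2(FPKM + 1) against coding length (log axis, bases) for 76 ribosomal protein genes and 1236 other protein-coding genes with mean FPKM of at least 100, for P1 against P0 (left) and P2 against P1 (right). In the right panel the ribosomal protein genes with the shortest coding sequences lie lowest, which the left panel does not show.

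Rpl37, Rpl38, Rpl39, Rps27 and Rps28, the 5 genes above 100 FPKM that fell between P0 and P2, each have at most 300 coding bases. A split by coding length was therefore made, chosen after the values had been seen. Of 76 ribosomal protein genes with mean FPKM of at least 100, the 10 with at most 300 coding bases had a median of -0.29 for P2 against P1. They are Rpl37, Rpl37a, Rpl38, Rpl39, Rpl41, Rps21, Rps27, Rps27l, Rps28 and Rps29, and 10 of 10 were lower at P2. The medians were -0.09 for 17 genes above 300 and up to 400 bases, -0.07 for 27 above 400 and up to 600, and -0.02 for 22 above 600. Across the 76 genes Spearman's rho between coding length and this difference was 0.64 and Pearson's r 0.57. Without the 10 shortest, rho was 0.47 over 66 genes. These genes share libraries and a high level of expression, and they are not independent replicates.

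The pattern depended on the comparison. For P1 against P0 the same 10 genes had a median of 0.00, with 5 of 10 lower, and rho over the 76 was -0.24. For P2 against P0 their median was -0.33 and rho was 0.40. Among 1236 other protein-coding genes, held to the same floor of 100 FPKM but not matched in level, rho was -0.19 for P2 against P1. Their 55 genes with at most 300 coding bases nevertheless had the lowest median of the 4 length classes, -0.06 with 34 lower, against 0.04, 0.05 and 0.00 for the longer classes. For P1 against P0 those 55 had the highest median, 0.12 with 12 lower, where the 10 ribosomal protein genes had 0.00. For P2 against P0 the 55 had a median of 0.08 with 17 lower, against -0.33 for the 10 ribosomal protein genes. The shortest other genes were thus lower at P2 than at P1, by a smaller amount, but not lower than at P0. The difference between the 2 sets was not tested. Whether library preparation or fragment length takes part in this was not tested.

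Individual short genes showed the step at P2 most plainly. Rps29, a small zinc-binding protein on chromosome 12, measured 1122 FPKM at P0, 1332 at P1 and 901 at P2. It was highest at P1 (1.19 of P0, 1.16 to 1.22) and lowest at P2 (0.676 of P1, 0.657 to 0.696), the widest range of any canonical gene above 100 FPKM. Rps28 measured 1306, 1376 and 983 FPKM, with a ratio of P2 to P1 of 0.715 (0.695 to 0.735). Rpl41, which codes for the shortest of these proteins in 75 coding bases, measured 2472, 2584 and 2079 FPKM, a ratio of 0.805 (0.791 to 0.818). Rps27, a zinc-finger protein of the small subunit, measured 1741, 1685 and 1374 FPKM, a ratio of P2 to P0 of 0.789 (0.772 to 0.806). In all 4 the P2 library was the lowest, and P0 and P1 differed by less than either did from P2.

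Rpl5 and Rpl11, which with 5S RNA form the complex that binds Mdm2, were not among the genes that fell or rose. Rpl5 measured 1320 FPKM at P0, 1152 at P1 and 1147 at P2, with P0 above both later libraries (P2 to P0 0.869, 0.855 to 0.883). Rpl11 measured 1739, 1662 and 1624 FPKM, a ratio of 0.934 (0.917 to 0.951). Rpl23, another Mdm2-binding protein, measured 1553, 1467 and 1332 FPKM. The list of 10 Mdm2-binding ribosomal proteins had medians of -0.09, -0.16 and -0.04 for the 3 comparisons, beside -0.08, -0.16 and -0.07 for all ribosomal protein genes, and only Rps27 of the 10 fell at P2 against P0.

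Rplp0 and Rplp1 of the stalk differed in sign from most large-subunit genes. Rplp0, which anchors the stalk, measured 2860 FPKM at P0, 3132 at P1 and 3383 at P2. It was higher in each later library, 1.10 of P0 at P1 (1.08 to 1.11) and 1.18 at P2 (1.17 to 1.20), short of the lower threshold. The acidic protein gene Rplp1 measured 3567, 3689 and 3771 FPKM, a ratio of 1.06 (1.04 to 1.07). Its partner Rplp2 went the other way, at 1450, 1420 and 1283 FPKM, a ratio of 0.885 (0.867 to 0.903). Rpl12, at the stalk base, measured 92.7, 94.3 and 88.4 FPKM, with an interval on the ratio that included 1 (0.900 to 1.01). The median of the 4 was 0.04, 0.01 and -0.03 for the 3 comparisons, but the 4 genes did not share a sign. The pseudogene Gm8730, a close copy of Rplp0 (98.7% identical over its coding sequence), measured 364, 435 and 479 FPKM and was highest at P2. The treatment of reads that match both was not stated, so its values may not be independent of those of Rplp0.

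In the small subunit, 28 of 31 canonical genes were lower at P2 than at P0, with a median of -0.15, and 2 fell, Rps27 and Rps28. The most abundant, Rps2, whose protein lies at the entry of the messenger RNA channel, measured 3606, 3531 and 3699 FPKM and was highest at P2 (1.03 of P0, 1.02 to 1.04). Its neighbour Rps3 measured 1217, 1218 and 1274 FPKM (1.05, 1.03 to 1.06). Rpsa, also known as the laminin receptor precursor, measured 2071, 2025 and 2054 FPKM, with ratios to P0 of 0.978 at P1 and 0.992 at P2. These 3 genes differed little between libraries while most 40S genes were lower at P2.

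Rps6, the substrate of the S6 kinases, measured 1822, 1666 and 1592 FPKM, lower in each later library (P2 to P0 0.874, 0.860 to 0.888). Rps14 measured 2626, 2409 and 2480 FPKM and was lowest at P1. Rps13 measured 502, 437 and 430 FPKM and Rps15a 298, 262 and 254 FPKM, both highest at P0. Rps27a, made as a fusion with ubiquitin, measured 1147, 1070 and 966 FPKM, a ratio of 0.843 (0.825 to 0.861).

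Rack1 and Fau are among the subunit genes that fall outside the symbol rule. Rack1, a scaffold for signalling proteins on the 40S head, measured 1076, 1061 and 1135 FPKM. Fau, made as a fusion with a ubiquitin-like protein, measured 1164, 1207 and 1192 FPKM, and neither passed the lower threshold.

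Some canonical subunits were recorded far below the rest. Rpl24 measured 1.245, 1.49 and 0.344 FPKM at P0, P1 and P2, from 15, 14 and 4 reads, so its fall at P2 (ratio 0.276, 0.0667 to 0.867) rests on very few reads. Rpl23a measured 66.1, 64.1 and 59.0 FPKM. With Rpl12 and Rpl13a these were the 4 canonical genes under 100 FPKM in every library, in a group whose lower quartile was 943 FPKM at P0. These proteins are regular parts of the ribosome, and the values are given as counted. Ribosomal protein genes have many processed pseudogenes, and the treatment of reads that match several places was not stated in the labels or notes used here. The part of such reads in the low levels was not tested.

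Copies were sought among the pseudogene IDs of the table, at 90% identity over 80% of a member's coding sequence. There were 806 copies of 78 genes, of which 76 copies reached 1 FPKM in some library. Together they held 1.73% of the reads of genes and copies at P0, 1.82% at P1 and 1.93% at P2. Among genes with at least 100 FPKM, the largest shares were for Rps3a1, whose copies Rps3a2 and Rps3a3 and others held 24.7, 24.4 and 24.1% of the reads, Rps13 with 17.3, 20.2 and 17.2%, and Rplp0 with 13.7, 14.7 and 14.9%. Copies of Rpl24 held 13, 5 and 12 reads, so the matched copies did not hold the reads that a gene of the usual level would have. Adding the copies' reads to the genes left the counts past each threshold and the medians near those of the genes alone.

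**Figure D4:**
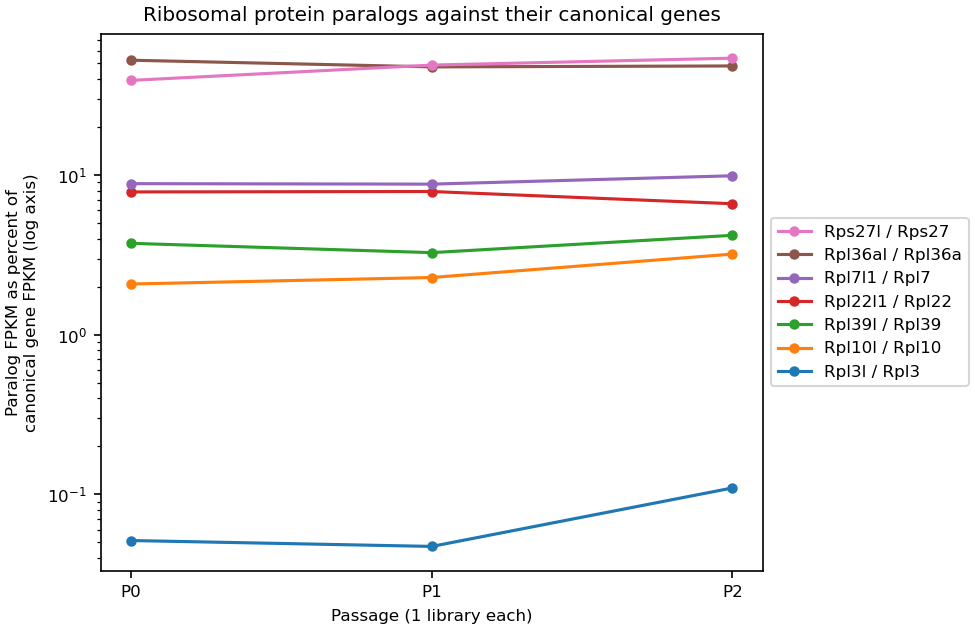
FPKM of 7 paralogs as a percent of the FPKM of their canonical gene (log axis) in the libraries P0, P1 and P2. Rps27l stood at 39.2% of Rps27 at P0 and 54.0% at P2 and Rpl10l at 2.08 and 3.20% of Rpl10, while Rpl22l1 stood lower relative to Rpl22 at P2.

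The paralogs ranged from near 0 to levels like those of the canonical genes. Rps27l, a paralog of Rps27 that p53 can induce, measured 682 FPKM at P0, 823 at P1 and 742 at P2, with a ratio of P1 to P0 of 1.21 (1.167 to 1.248), short of the lower threshold. Rps27l stood at 39.2, 48.9 and 54.0% of the Rps27 level in P0, P1 and P2. Between P0 and P2 the ratio changed 1.38-fold (1.32 to 1.43). The larger step was P1 against P0, at 1.247-fold (1.198 to 1.298), where Rps27l was higher and Rps27 stood at 0.968 of P0. For P2 against P1 the ratio changed 1.105-fold (1.061 to 1.151). Both genes were lower in that step, Rps27 (0.815 of P1) by more than Rps27l (0.901 of P1). The 2 coding sequences are 76.2% identical. Rpl10l, an intronless copy of the X-linked Rpl10 known from male germ cells, measured 31.9, 31.1 and 40.7 FPKM and rose at P2 (1.28 of P0, 1.16 to 1.41). Its level was 2.08, 2.28 and 3.20% of Rpl10, a 1.54-fold change of the ratio (1.39 to 1.70) between P0 and P2. The coding sequences are 84.7% identical, and reads that fit both were not separable here.

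Rpl22l1, which can replace Rpl22, measured 38.2, 38.3 and 29.6 FPKM and fell at P2 (0.773 of P0, 0.681 to 0.878). Rpl22 itself measured 488, 486 and 447 FPKM, so the paralog went from 7.84 to 6.61% of it. Rpl36al, a copy of the X-linked Rpl36a, measured 467, 424 and 395 FPKM beside 891, 892 and 818 FPKM of Rpl36a, or 52.4, 47.6 and 48.3%. Rpl7l1 measured 124, 109 and 116 FPKM. Rpl39l, known for its expression in male germ cells, measured 27.8, 23.1 and 24.5 FPKM, between 3.27 and 4.19% of Rpl39. Rpl3l, the form known from striated muscle, measured 0.731, 0.608 and 1.38 FPKM from 17, 11 and 31 reads. It rose at P2 by the threshold (1.89 of P0, 1.01 to 3.64), on few reads, and was compared only because P2 reached 1 FPKM. Rps27rt measured 1.73, 1.04 and 0.717 FPKM, and its coding sequence is 100% identical to that of Rps27, so reads within that sequence cannot be told from those of Rps27. The choice of paralog ratios as a measure was made after the values had been seen.

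Ribosomal protein genes whose human counterparts are mutated in Diamond-Blackfan anaemia, a failure of red cell production, were 20 of the 77. Their medians were -0.08, -0.20 and -0.08 for the 3 comparisons, beside -0.08, -0.16 and -0.07 for the 57 others. Rps27 and Rps28 fell at P2 against P0, and Rps28 and Rps29 at P2 against P1.

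Many small nucleolar RNAs, which guide the modification of ribosomal RNA, are encoded in introns of these genes. In the GENCODE annotation, 30 of the canonical genes contained 58 such genes on the same strand. The host genes had medians of -0.08, -0.16 and -0.07, and the other 47 canonical genes -0.07, -0.17 and -0.08. Reads on the nested small RNA genes numbered 404 at P0, 366 at P1 and 183 at P2. Scaled to library totals, P1 stood at 1.16 of P0 (1.01 to 1.34) and P2 at 0.469 of P0 (0.392 to 0.560). The host genes stood at 0.942 of P0 at P1 (0.939 to 0.945) and at 0.926 at P2 (0.923 to 0.929). Small nucleolar RNA genes outside ribosomal protein genes were also higher at P1, at 1.16 of P0 (1.05 to 1.28), and lower at P2, at 0.618 of P0 (0.552 to 0.692). RNAs this short are recovered poorly by standard library preparation, and the part of that in these values was not tested.

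Other genes of the TOP class, ribosome assembly and its regulation were taken from lists of fixed membership. Of 16 other TOP genes, 13 were lower at P2 than at P0, with a median of -0.18, and 3 fell. These were Gas5, a noncoding host of small nucleolar RNAs, at 86.5, 77.9 and 48.3 FPKM (0.558 of P0, 0.512 to 0.609), the nucleolar chaperone Npm1 at 3207, 2610 and 2295 FPKM (0.716, 0.708 to 0.723), and Naca, of the nascent chain complex, at 178, 145 and 138 FPKM. The elongation factor Eef1a1 measured 8821, 7766 and 7731 FPKM and Eef2 1535, 1394 and 1366 FPKM, both highest at P0. Pabpc1, also of this class, was higher in the later libraries, at 1766, 2061 and 2049 FPKM.

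Of 54 ribosome biogenesis genes, 29 were lower and 25 higher at P2 than at P0, with a median of -0.05. Ncl, Gnl3, Wdr43 and Bccip fell and none rose. Ncl, the nucleolar protein nucleolin, measured 1606, 1253 and 1153 FPKM, a ratio of 0.718 (0.710 to 0.725). Fbl, the methyltransferase fibrillarin, measured 504, 504 and 505 FPKM. Of 12 genes of RNA polymerase I and its initiation factors, Taf1d fell at P2, from 75.5 to 39.7 FPKM, and Taf1a, Taf1c and Polr1e rose, to 20.2, 41.3 and 50.2 FPKM, so this list had no common direction.

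Of 14 regulators of TOP translation and ribosomal protein transcription, only Mycn passed the threshold at P2, measuring 131, 191 and 170 FPKM (1.30 of P0, 1.26 to 1.35). Myc measured 53.2, 48.3 and 44.6 FPKM and Larp1 144, 120 and 117 FPKM. The mitochondrial ribosomal protein genes, 77 of 78 compared, had medians of -0.03, 0.00 and 0.01, with 40 lower and 37 higher at P2 than at P0. The corresponding counts of cytosolic genes were 75 and 10. No test of the difference between the lists was made, since 1 library stands for each passage.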

How the data were processed

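RNA sequencing of 3 libraries was given as 1 table of FPKM values, which the authors deposited for 50043 gene IDs, of which 49412 matched a symbol in GENCODE release 21 of the mouse series (M21). The submitters' processing notes name the build mm9, the aligner TopHat2 2.0.9 and Bowtie2 2.0.6. For the counting program, its annotation and the library strand, nothing is given in the sources used here. Total RNA was purified on a column and libraries followed Illumina's standard procedure, per the labels' protocols.

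Because each deposited value is a read number over a gene length and a library total, the read numbers could be solved for from the ratios between libraries. Whole reads were obtained for 26287 (99.98%) of 26291 IDs above 0, within a relative tolerance of 1e-12, as did all 85 ribosomal protein genes. The total is known up to a common factor. With a factor of 2, reads of single-transcript genes, taken at their annotated length, were whole for 3960 of 4360 IDs (90.8%). Factors of 4 and 6 gave the same share, and the smallest was used. The read numbers and the width of the intervals depend on that choice. Recovered reads summed to 100.5% of the totals, an excess whose cause was not tested. Intervals on ratios are exact conditional (Clopper-Pearson) 95% intervals on these reads. The labels name no molecular identifiers, reads may repeat a molecule, and the intervals cover counting error only.

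Values were compared as log2(FPKM + 1), which understates differences of low genes, leaving out genes under FPKM 1 in both libraries compared. Thresholds were 0.32 and 1 on that scale. No count model or p-value was used, since there was 1 library per passage. The steps were tested on simulated data.

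The members and lists were chosen with earlier results of these data known. Named genes were a fixed set of regulators, stalk genes and paralogs, the 5 highest and 5 lowest by mean, the 8 largest rises and 8 largest falls of each comparison, and up to 4 genes of each other list. Some genes that this rule names are not reported here. The coding length, paralog ratio, copy, motif and small nucleolar RNA comparisons were chosen after seeing the data. Alternatives were a pseudocount of 0.1, floors of 0, 5 and 100 FPKM, 3 other scalings, canonical genes alone, other share denominators and, after seeing the data, addition of pseudogene copies. Computations used Python 3.11.15 with scipy 1.17.1, numpy 2.4.6, matplotlib 3.10.9 and pandas 2.3.3.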

Additional observations from a re-analysis of the deposited data

How the results depend on the processing

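No median of the 85 members, and no named member past the lower threshold, changed sign under an alternative. The median of all genes did, for P1 against P0 and P2 against P0, under median-of-ratios scaling and quantile normalization. Relative to all genes, however, the members' median turned from -0.13 to 0.01 for P1 against P0 and from -0.23 to 0.01 for P2 against P0 under quantile normalization, and the 60S to 40S ratio went from above 1 by sums to below 1 by medians. No paired analysis was possible because each passage has 1 library and the labels give no replicate number, and for the same reason no library could be left out. Under median-of-ratios scaling the median was -0.19 for P1 against P0, -0.30 for P2 against P0 and -0.089 for P2 against P1, under quantile normalization -0.023, -0.046 and -0.013, and rescaling to 1000000 gave -0.075 for P1 against P0. Falls past the lower threshold for P1 against P0 numbered 3 under median-of-ratios scaling, 2 under quantile normalization, and 0 with a floor of 5 or 100 or with canonical genes alone. For P2 against P0 they numbered 31 under median-of-ratios scaling, 5 under quantile normalization and 5 with a floor of 100, and for P2 against P1 they numbered 4 with that floor. Rises past it numbered 1 for P1 against P0 under quantile normalization. For P2 against P0 they numbered 1 under median-of-ratios scaling, quantile normalization or a floor of 5, and 0 with a floor of 100 or canonical genes alone. For P2 against P1 they numbered 1 with a floor of 5, and 0 with a floor of 100 or canonical genes alone. Past 2-fold, a pseudocount of 0.1 gave 2 falls for P2 against P0 and, for P2 against P1, 1 fall and 1 rise, and rescaling gave 1 fall for P2 against P1. Floors and canonical genes alone lose calls by leaving out low genes or paralogs. The cause of the changes under scaling was not tested. With protein-coding genes as denominator the share was 15.97, 15.3 and 14.7% at P0, P1 and P2, by reads 8.20, 7.81 and 7.53%, and with pseudogene rows added 15.8, 15.2 and 14.5%. The ratio of 60S to 40S was 0.717, 0.740 and 0.720 by medians and 1.32, 1.30 and 1.32 over canonical genes. Depth limits Rpl24, Rpl3l and Rps27rt, at 31 reads or fewer in each library, while other members had at least 283.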
